A study of Homo sapiens with 4 samples.

Results

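The 10 genes described here belong to the BCL2 family, which controls the mitochondrial route of apoptosis. They were BCL2, BCL2L1, MCL1 and BCL2A1, which protect cells, the effectors BAX and BAK1, and the BH3-only genes BCL2L11, BBC3, PMAIP1 and BID. A probe was a member if its annotation named 1 of these genes alone, which gave 18 of 31741 probes and 10 of 18365 genes. There were 5 antiapoptotic and 13 proapoptotic probes. The genes were chosen with their values on these arrays known, so levels and differences are given as a description, without a test.

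RNA was measured in HepG2, a human liver cancer line, and A549, a human lung cancer line. In each line there was 1 control array and 1 array of cells exposed to 10 μM GSK343, an inhibitor of the histone methyltransferase EZH2, for 6 h. What the control cells received is not stated in the labels, which name no engineered allele. With 1 array for each of the 4 conditions, a difference has no replicate error and no p-value.

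BCL2 family proteins decide whether the outer mitochondrial membrane is opened. BAX and BAK1 form the pores that release cytochrome c, and the antiapoptotic proteins hold them and the BH3-only proteins in check. BH3-only proteins carry stress signals: they bind the antiapoptotic proteins or activate BAX and BAK1 directly. BCL2L1 encodes BCL-XL, on which many liver and lung cancer cells rely, and MCL1 encodes a protein with a short life that depends on continued synthesis.

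Genes fixed as markers set the lines apart in the direction of the labels. The A549 markers were fixed as a contrast with HepG2 and do not by themselves identify a lung line. HNF4A, also fixed as a liver marker, had no probe of its own. Probes of the liver genes ALB, AFP, APOA1, APOB, TTR and FGB ranged from 10638 to 455048 intensity units in HepG2 and from 53.8 to 1209 in A549. KRT7, CAV1, ANXA1 and VIM ranged from 54671 to 178664 in A549 and from 22.7 to 147.5 in HepG2, whereas LGALS1 was also bright in HepG2, at 16584 in the control. Of the genes fixed as markers of other cell types, the leukocyte gene PTPRC was at most 45.0 on any array, and the endothelial gene PECAM1 reached 492.5 in the HepG2 control. The collagen gene COL1A1 was above the median on all 4 arrays, from 2150 to 2696. The part of other cells in the results was not tested. The array medians were 475.8 and 449.8 in HepG2 and 460.1 and 498.8 in A549, control first. EZH2, the target of GSK343, differed by -0.20 log2 units in HepG2 and by 0.02 in A549. Since the RNA came from whole cultures, a change in the makeup of the culture and a change of RNA per cell cannot be told apart.

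Promoters are shown for 3 members with contrasting patterns on the arrays: BCL2L1, which differed in opposite directions between the lines, and BCL2A1 and PMAIP1, which were much brighter in A549 than in HepG2. The 250 bases before the RefSeq start site were taken from GRCh38.p14, at chr20:31723964-31724213 on the minus strand for BCL2L1, at chr15:79971197-79971446 on the minus strand for BCL2A1 and at chr18:59899746-59899995 on the plus strand for PMAIP1. They are printed from 5′ to 3′ along the gene, and capitals mark the motifs named after them.
BCL2L1: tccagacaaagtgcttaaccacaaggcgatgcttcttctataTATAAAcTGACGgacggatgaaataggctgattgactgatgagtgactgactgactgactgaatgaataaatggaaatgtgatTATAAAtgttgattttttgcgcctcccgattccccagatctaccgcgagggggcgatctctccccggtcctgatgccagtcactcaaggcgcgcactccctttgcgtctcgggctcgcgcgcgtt
BCL2A1: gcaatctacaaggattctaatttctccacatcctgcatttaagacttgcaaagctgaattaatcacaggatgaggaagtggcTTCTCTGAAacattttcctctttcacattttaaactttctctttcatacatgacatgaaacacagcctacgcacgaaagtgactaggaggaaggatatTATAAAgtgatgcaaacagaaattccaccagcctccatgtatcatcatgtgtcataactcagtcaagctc
PMAIP1: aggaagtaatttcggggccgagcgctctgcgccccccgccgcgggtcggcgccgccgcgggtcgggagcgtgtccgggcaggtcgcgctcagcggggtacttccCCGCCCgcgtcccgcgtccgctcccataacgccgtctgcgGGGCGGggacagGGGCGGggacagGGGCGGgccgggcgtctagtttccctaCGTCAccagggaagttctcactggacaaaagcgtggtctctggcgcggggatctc

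Base composition separated these promoters. GC content was 50% for BCL2L1, 38.8% for BCL2A1 and 72.8% for PMAIP1, with 17, 2 and 36 CpG dinucleotides. Both strands were searched for 6 motifs. The GC box was spelled GGGCGG. The CCAAT box was searched by the letters of its name. The TATA box was taken as TATAAA. The core of the CRE, which CREB and ATF proteins bind, was taken as TGACG. A STAT site was spelled TTCNNNGAA, and an AP-1 site was spelled TGANTCA. No matches overlapped in the printed promoters. Among the 9 members with a promoter sequence, TATAAA was found in BCL2L1 and BCL2A1, and 10.7% of 35116 promoters of that length held it. In BCL2L1 it lay from -208 to -203 and from -125 to -120, and in BCL2A1 from -70 to -65, counted from the start site. PMAIP1 held 4 GC boxes, a motif present in 5 of the 9 member promoters and in 42.6% of all promoters. The STAT motif was found in BCL2A1 alone of the 9 members and in 6.57% of all promoters. TGACG was present in BCL2, BCL2L1, BAX and PMAIP1, against 21.2% of all promoters, the CCAAT box in 4 members against 32%, and the AP-1 motif in BBC3 against 6.57%. These matches are letters in a window and were not tied to the array values. MCL1 is named without a promoter sequence.

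The antiapoptotic genes held the largest GSK343 differences among the members. BCL2L1 and MCL1 were each lower by at least 1 log2 unit with GSK343 in HepG2 and higher by at least 1 in A549. The gene values of BCL2 and BCL2A1 were -0.33 and -0.60 in A549 and close to 0 in HepG2, at -0.02 and -0.05, where their sign turned with median centring and quantile normalization. No proapoptotic member differed by 1 log2 unit or more in either line.

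The BCL2L1 probe read 11339 in the HepG2 control and 4704 with GSK343, and 3541 in the A549 control and 7690 with GSK343. The differences were -1.27 log2 units in HepG2, where the level with GSK343 was 0.415 of the control, and 1.12 in A549, a fold of 2.17. The order from high to low was HepG2 control, A549 with GSK343, HepG2 with GSK343 and A549 control, so the treated arrays lay between the controls of the lines. The MCL1 probe had the same order, with 5989 and 2929 in HepG2 and 2586 and 5267 in A549, control first. Its differences were -1.03 in HepG2, a fold of 0.489, and 1.03 in A549, a fold of 2.04. In each line the 2 probes thus pointed the same way, and each had a single probe on the array.

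The only yardstick for error on these arrays was how far probes for 1 gene disagreed, given as a spread between probes, which is the SD of the difference between such probes over the square root of 2. It was 0.39 log2 units over 7404 pairs in HepG2 and 0.42 in A549, and 0.28 and 0.38 among the brightest 25% of pairs. All 4 differences of BCL2L1 and MCL1 were beyond it, as were 19.4% of all probes in HepG2 and 21.4% in A549. Neighbours in the order of levels were closer than the differences within a line. For BCL2L1 the gaps were 0.56, 0.71 and 0.41, none of them beyond the spread of the arrays compared. For MCL1 the gaps were 0.19, 0.85 and 0.18, of which the middle one, between A549 and HepG2 with GSK343, was beyond the spread of 0.82. This spread is not a replicate error, since it does not include differences between cultures.

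Over all probes, 2.54% were lower by at least 1 log2 unit in HepG2 and 0.648% were higher, while in A549 1.58% were higher and 0.764% were lower. Among the members, 2 of 17 probes with a difference were lower in HepG2 by that amount and the same 2 were higher in A549. As these values took part in choosing the genes, nothing is read from the counts. Of 31634 probes in HepG2, 475 were at or below the BCL2L1 difference and 739 at or below that of MCL1. In A549, 339 and 451 of 31667 probes were at or above them. The combination of at least 1 lower in HepG2 and at least 1 higher in A549 was shared by 44 of 31607 probes, or 0.139%. Among the 15804 brighter probes, with a mean log2 signal at or above the median, 17 or 0.108% had it. Opposite signs of any size were common: 58.8% of all probes, 65.1% of the brighter probes and 58.3% of all genes had them, against 4 of the 10 member genes.

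**Figure D1:**
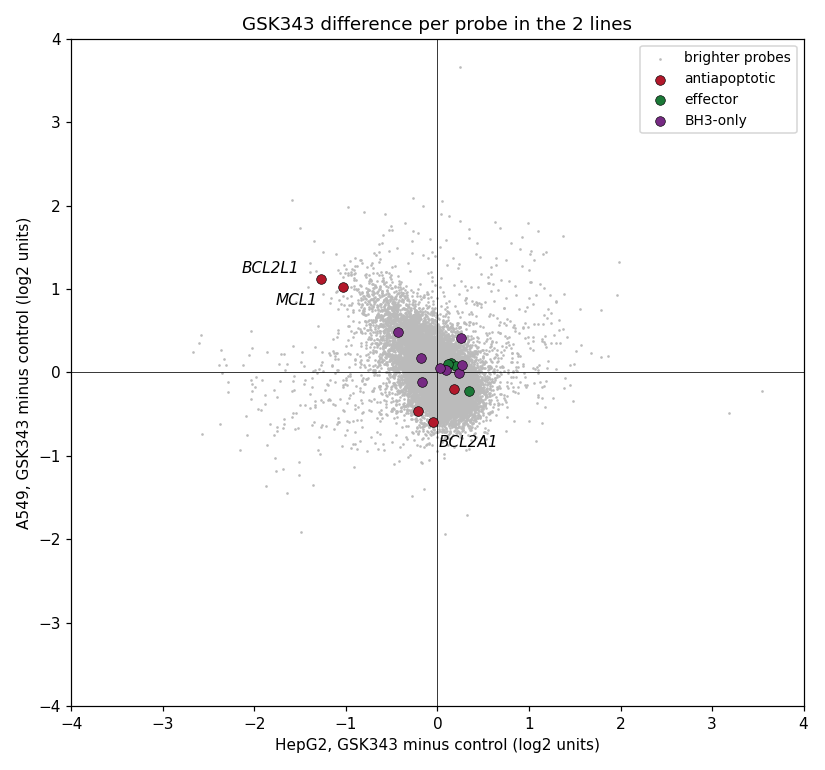
Each grey point is a probe with a mean log2 signal at or above the median, placed by its GSK343 minus control difference in HepG2 (x axis, log2 units) and in A549 (y axis, log2 units), with the member probes coloured by class and 5 of the 15804 probes outside the axes. BCL2L1 and MCL1 lie at the upper left, at -1.27 and 1.12 and at -1.03 and 1.03, and the proapoptotic probes lie near the centre.

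Further probes were available for some genes with this combination, though not for BCL2L1 or MCL1. The 44 probes included 38 that named 1 gene alone, and 28 of these 38 genes had 34 other probes. The other probes had a median difference of 0.03 in HepG2 and -0.09 in A549, 0 of the 34 passed 1 log2 unit in both lines, and 7 had the same pair of signs. Among the brighter probes, 10 of 15 genes had 12 other probes, with medians of 0.02 and -0.19, and 3 had the same pair of signs. Over all probes, 0.139% had the combination and 58.8% had opposite signs in either direction, or 0.108% and 65.1% of the brighter probes. The share of all probes with this pair of signs was not computed. As the 38 probes were picked by their size on these arrays, smaller values on other probes are in part built in. Nothing is read from these counts. TNFRSF1A, a receptor for tumour necrosis factor, is an example, with -1.50 and 1.73 on one probe and 0.05 and -0.60 on the other. Whether the values of BCL2L1 and MCL1 would hold on another probe was not tested.

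The probes closest to BCL2L1 and MCL1 over the 4 arrays were found by the Euclidean distance between centred log2 values, among 13433 brighter single-gene probes. For BCL2L1 they were RHOT2, a mitochondrial transport GTPase, at 0.156, followed by GAR1 at 0.181, MCM3AP at 0.190, TOP1 at 0.202 and CARD10 at 0.223. TOP1, which encodes topoisomerase I, read 1411 and 535.6 in HepG2 and 363.3 and 840.1 in A549. For MCL1 the closest were USP19, a deubiquitinase, at 0.112, then NAA40 at 0.140, AKT1 at 0.141, ERAL1 at 0.156 and RCC2 at 0.160. MCL1 was in place 18 from BCL2L1 and BCL2L1 in place 47 from MCL1, at a distance of 0.352. RHOT2, TOP1, CARD10, USP19 and NAA40 had no other probe that named them alone. Other probes of AKT1, ERAL1, GAR1, MCM3AP and RCC2 differed from the neighbouring probe in size or sign. The other AKT1 probe differed by 0.42 in HepG2 and -0.01 in A549, the other ERAL1 probe by 0.06 and -0.01, and the other GAR1 probe by -0.68 and 0.48. The other MCM3AP probe differed by -0.30 and 0.22, and the other RCC2 probes by -0.62 and 0.40 and by -0.25 and -0.33. So the other probes of GAR1 and MCM3AP and the first of RCC2 kept the pair of signs at a smaller size. Those of AKT1 and ERAL1 and the last of RCC2 did not keep it.

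BCL2, the founding member of the family, was dim. Its first probe read 49.2 and 42.4 in HepG2 and 119.5 and 87.0 in A549, control first, and its second probe 14.6 and 16.5 in HepG2 and 24.7 and 21.5 in A549. Neither probe reached the array median on any array. The GSK343 differences were -0.21 and 0.18 in HepG2 and -0.46 and -0.20 in A549, and of these only the first probe in A549 was beyond the spread.

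BCL2A1, an antiapoptotic gene known as a target of NF-κB in blood and tumour cells, was set apart by line. Its probe read 47.1 and 45.5 in HepG2 and 1283 and 847.9 in A549, so both A549 arrays were above both HepG2 arrays. The controls differed by 4.77 log2 units between the lines and the GSK343 arrays by 4.22. The HepG2 values lay under the 25th percentile of their arrays, 100.4 and 94.1, so these sizes rest on low readings, and with an offset of 50 the controls differed by 3.78. With GSK343 the difference was -0.05 in HepG2 and -0.60 in A549, the latter beyond the spread. A probe annotated to both ST20 and BCL2A1, which is not a member, read 1479 and 1966 in HepG2 and 15211 and 10170 in A549. It differed by 3.36 log2 units between the controls and 2.37 between the GSK343 arrays. It was also lower with GSK343 in A549, by -0.58 log2 units, and it was higher in HepG2, by 0.41.

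**Figure D2:**
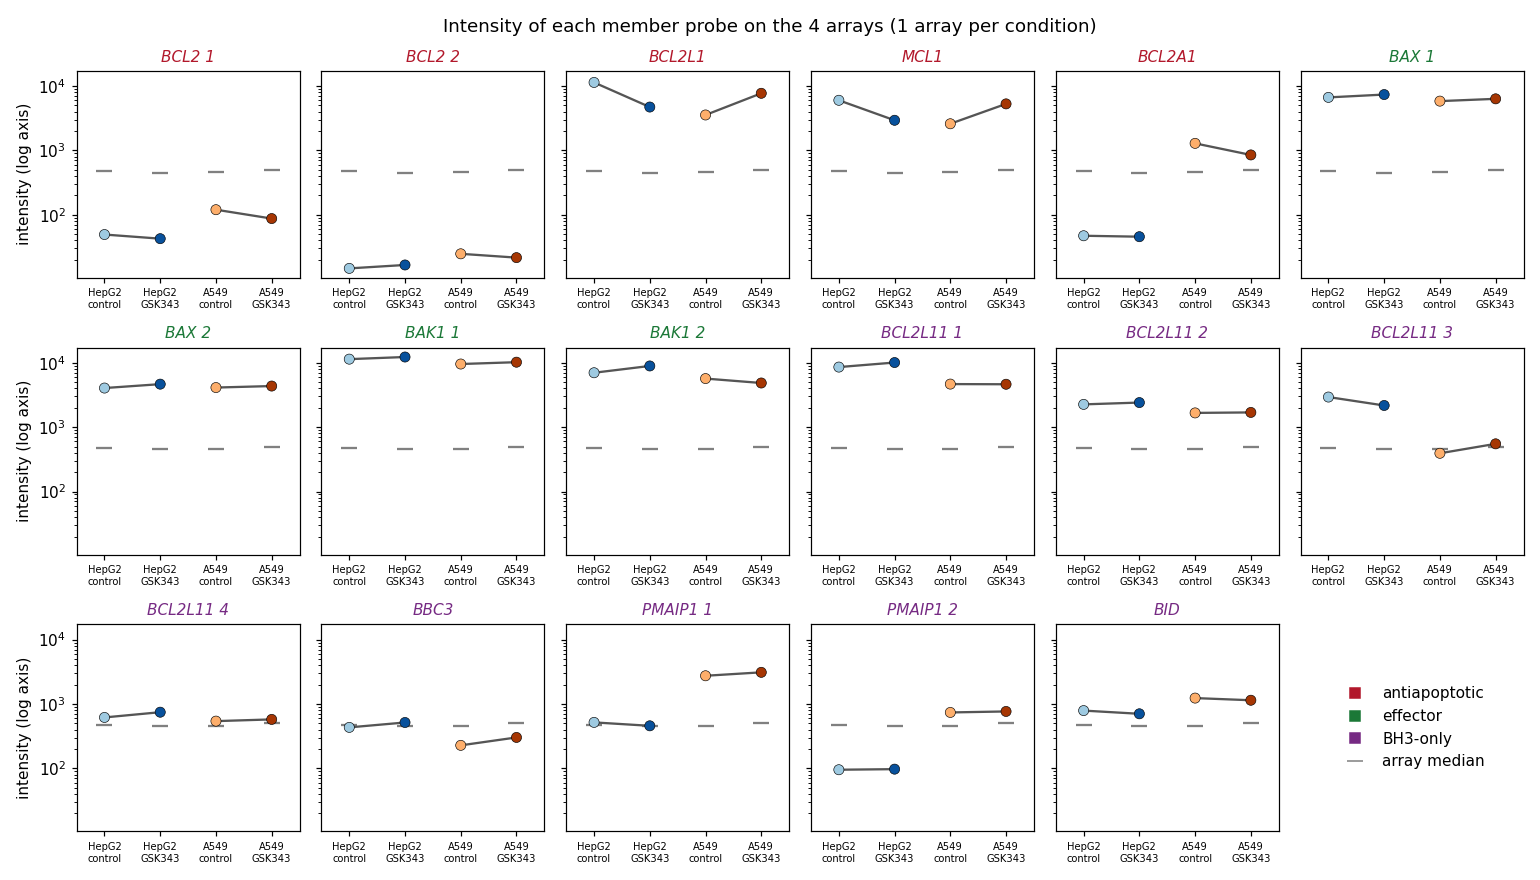
Intensity of each member probe with a difference (y axis, log scale) on the HepG2 control, HepG2 GSK343, A549 control and A549 GSK343 arrays, with 1 array per point and a dash at the median of each array. The BCL2L1 and MCL1 lines slope down in HepG2 and up in A549, and BCL2A1 and PMAIP1 sit higher in A549 than in HepG2.

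The effectors BAX and BAK1 were bright and differed little with GSK343 within each line. The first BAX probe read 6642 and 7353 in HepG2 and 5813 and 6310 in A549, and the second read 4051 and 4658 in HepG2 and 4124 and 4352 in A549. All 4 BAX differences with GSK343 were between 0.08 and 0.20 without further scaling, and the gene value in A549 was -0.02 with median centring. The first BAK1 probe read 11395 and 12298 in HepG2 and 9570 and 10219 in A549, with differences of 0.11 and 0.09. The second BAK1 probe read 7004 and 8928 in HepG2 and 5686 and 4854 in A549, with differences of 0.35 and -0.23. The BAK1 probes therefore differed in sign in A549, and no effector probe was beyond the spread in either line. Between the GSK343 arrays, the second BAK1 probe differed by -0.88 log2 units, A549 minus HepG2, beyond the spread of 0.82 for those arrays.

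BCL2L11 encodes BIM, a BH3-only protein that binds all antiapoptotic members. Of its 5 probes, 4 gave a difference. The brightest read 8578 and 10091 in HepG2 and 4668 and 4640 in A549, and its differences were 0.23 and -0.01. A second probe read 2259 and 2410 in HepG2 and 1665 and 1694 in A549, and another read 618.0 and 745.5 in HepG2 and 541.7 and 576.0 in A549. These 3 probes were all within the spread. The third probe read 2936 and 2171 in HepG2 and 392.7 and 550.6 in A549, with differences of -0.44 and 0.49. It was the only proapoptotic probe beyond the spread, in both lines, and it had the signs of BCL2L1 and MCL1. Between the controls it was lower in A549 by -2.90 log2 units, whereas the other 3 differed by -0.88, -0.44 and -0.19. The fifth probe read 0 or less on all 4 arrays.

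BBC3 encodes PUMA, a BH3-only protein that binds the antiapoptotic members. Its probe read 432.9 and 516.0 in HepG2 and 227.7 and 302.2 in A549, and reached the array median only in HepG2 with GSK343. The differences of 0.25 and 0.41 were the highest gene values among the proapoptotic members in each line, both within the spread. BID, which links death receptors to mitochondria, read 789.5 and 704.1 in HepG2 and 1235 and 1143 in A549. Its differences were -0.17 and -0.11, both within the spread.

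PMAIP1 encodes NOXA, a BH3-only protein that binds MCL1. Its first probe read 517.6 and 458.1 in HepG2 and 2744 and 3103 in A549, and its second probe 95.2 and 97.2 in HepG2 and 739.0 and 765.8 in A549. Both A549 arrays were above both HepG2 arrays on each probe. The controls differed by 2.41 and 2.96 log2 units and the GSK343 arrays by 2.76 and 2.98, so the 2 probes gave the same direction. The second probe was under the 25th percentile of the HepG2 control array, so its size rests on a low reading. With GSK343 the differences were -0.18 and 0.03 in HepG2 and 0.18 and 0.05 in A549, within the spread.

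**Figure D3:**
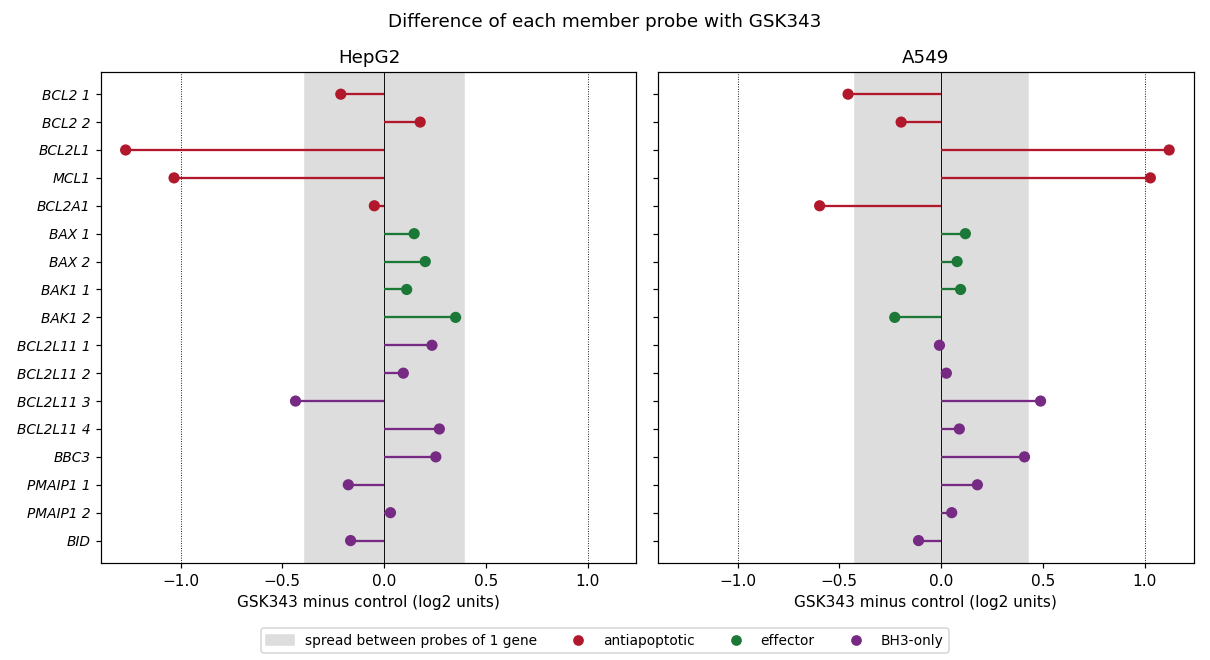
GSK343 minus control difference of each member probe (x axis, log2 units) in HepG2 on the left and A549 on the right, coloured by class. The grey band is the spread between probes of 1 gene, 0.39 in HepG2 and 0.42 in A549, and the dotted lines mark 1 log2 unit, which BCL2L1 and MCL1 alone passed.

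By class, the 4 antiapoptotic genes had a median difference of -0.54 in HepG2 and 0.35 in A549. The 6 proapoptotic genes had a median of 0.11 in each line. The median over all genes was -0.02 in HepG2 and 0.04 in A549. The antiapoptotic medians rest on BCL2L1 and MCL1: none of the 4 genes was above 0 in HepG2 without further scaling, though BCL2 at 0.06 and BCL2A1 at 0.03 were above it with median centring, while in A549 the gene values ran from -0.60 for BCL2A1 to 1.12 for BCL2L1. Of the proapoptotic genes, 4 of 6 were above 0 in each line, against 46.7% of all genes in HepG2 and 54.7% in A549. These signs are of values close to 0, and some of them turned under the alternatives. None of the 6 was beyond the spread, against 16.3% and 17.4% of all genes. Centring each array on its median moved all A549 differences by -0.12 and all HepG2 differences by 0.08, and relative to that the proapoptotic median in A549 was -0.01.

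Between the controls of the lines, 13.4% of all probes were higher in A549 by at least 1 log2 unit and 12.8% were lower, and for genes the shares were 13.7% and 13%. Of the 4 antiapoptotic genes, BCL2 at 1.02 and BCL2A1 at 4.77 were higher in A549 by that amount, though both BCL2 probes were dim and the gene was at 0.49 with an offset of 50 and 0.99 with quantile normalization, and BCL2L1 at -1.68 and MCL1 at -1.21 were lower. Of the 6 proapoptotic genes, PMAIP1 at 2.68 was higher and BCL2L11 at -1.10 was lower, the latter at -0.85 with the offset and -0.88 on its brightest probe. With GSK343 on both sides, BCL2L1 and MCL1 were higher in A549, by 0.71 and 0.85, so the sign of the difference between the lines turned. The spread for the GSK343 arrays was 0.82, which MCL1 narrowly passed and BCL2L1 did not. The contrasts between the lines share arrays with the GSK343 differences within each line and are not independent of them.

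**Figure D4:**
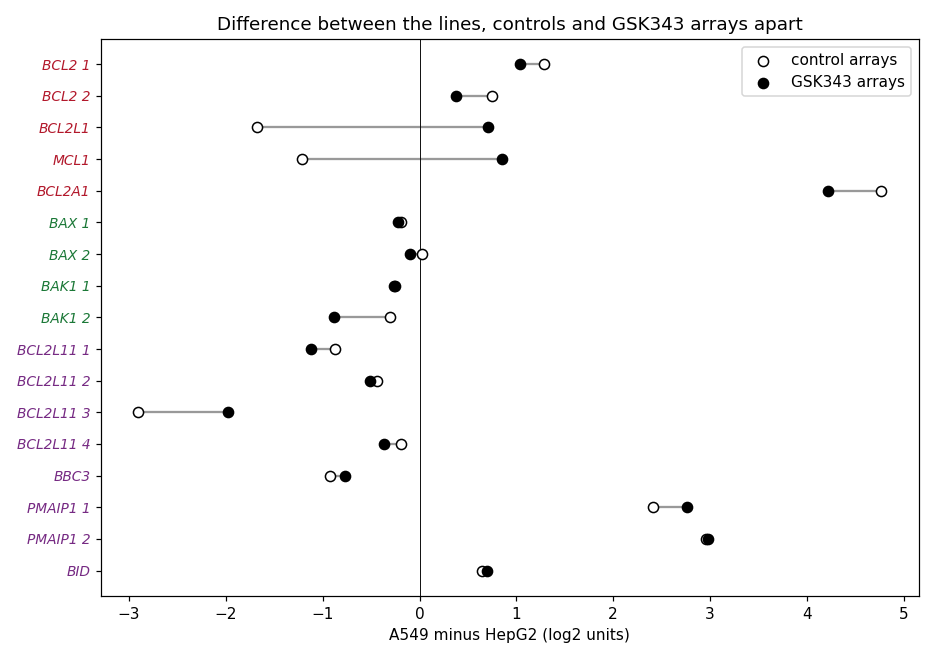
Difference between the lines, A549 minus HepG2 (x axis, log2 units), for each member probe between the control arrays (open points) and between the GSK343 arrays (filled points). The points of BCL2L1 and MCL1 lie on opposite sides of 0, at -1.68 and 0.71 and at -1.21 and 0.85, while those of BCL2A1 and PMAIP1 stay at 2.41 or more.

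The wider apoptosis machinery was examined with 8 lists, in which 59 of 63 genes had a probe of their own. In HepG2, 1 of the 59 was higher by at least 1 log2 unit and 0 were lower, and in A549 0 were higher and 1 was lower. Among all genes measured, the share higher by that amount was 0.458% in HepG2 and 0.932% in A549, and the share lower by it was 1.87% and 0.534%. The gene past this size was BCL2L10, an antiapoptotic relative, in both lines. It read 11.5 and 32.1 in HepG2 and 113.8 and 46.0 in A549, with differences of 1.48 and -1.31. These levels were below the median on all 4 arrays. They were under the 25th percentile on 3, all but the A549 control, so the sizes rest on low readings.

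The other antiapoptotic relatives were bright. BCL2L2, which encodes BCL-w, differed by 0.11 in HepG2 and 0.56 in A549, and BCL2L12 by 0.23 and -0.17. Of the 10 other proapoptotic genes, HRK was the highest in HepG2 at 0.59 and the lowest in A549 at -0.97. Its single probe was dim, below the median on all 4 arrays. BMF, a BH3-only gene, was the highest in A549 at 0.58, and BOK, a relative of BAX, was the lowest in HepG2 at -0.22.

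Downstream of the mitochondria, 11 genes of the apoptosome and caspase list were measured. They ran from -0.34 for CASP8, the initiator caspase of death receptors, to 0.35 for APAF1, the scaffold of the apoptosome, in HepG2. The 2 CASP8 probes were unlike there, at -0.03 and -0.65. In A549 the 11 genes ran from -0.31 for DIABLO, an antagonist of the inhibitors of apoptosis, to 0.53 for CASP10. On a separate list of 7 genes that restrain apoptosis, BIRC7 was the highest in HepG2 at 0.40 and CFLAR the lowest at -0.25. CFLAR had unlike probes there, at -0.46 and -0.04, the former beyond the spread. In A549, BIRC5 was the highest at 0.19, as the mean of unlike probes at 0.47, 0.39 and -0.31, and BIRC3 the lowest at -0.71. BIRC3 read 327.3 and 325.7 in HepG2 and 6636 and 4044 in A549.

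Of the 11 death receptor genes, TNFRSF1A was the lowest in HepG2 at -0.72 and the highest in A549 at 0.57, as the mean of its 2 unlike probes. TNFRSF10C, a decoy receptor, was the highest in HepG2 at 0.24, as the mean of dim probes at 0.58 and -0.09. The adaptor FADD was the lowest in A549 at -0.39. Gene values of the genes that act on MCL1 protein by ubiquitin ran from -0.29 for TRIM17 to 0.02 for BTRC in HepG2. In A549 they ran from -0.22 for USP9X to 0.17 for BTRC. The 3 TRIM17 probes were unlike in HepG2, at 0.05, -0.19 and -0.74, and the last was dim and beyond the spread. The 2 BTRC probes were unlike in A549, at 0.43 and -0.09. The VDAC genes of the outer mitochondrial membrane ran from -0.12 for VDAC2 to 0.15 for VDAC3 in HepG2, and from -0.31 for VDAC2 to 0.04 for VDAC1 in A549. VDAC2 had unlike probes in A549, at -0.08 and -0.55, the latter beyond the spread.

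Among 9 transcription regulators measured, DDIT3, which encodes the stress factor CHOP, was the highest in both lines. It read 6075 and 10084 in HepG2 and 2658 and 4555 in A549, with differences of 0.73 and 0.78, so it was beyond the spread and had the same sign in both lines. The lowest were MYC at -0.35 in HepG2 and RELA, an NF-κB subunit, at -0.25 in A549. The PRC2 partner of EZH2, SUZ12, differed by 0.18 and -0.25. Of the 2 EED probes, a dim one differed by 0.64 and 0.16 and the other by 0.01 and -0.42.

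**Figure D5:**
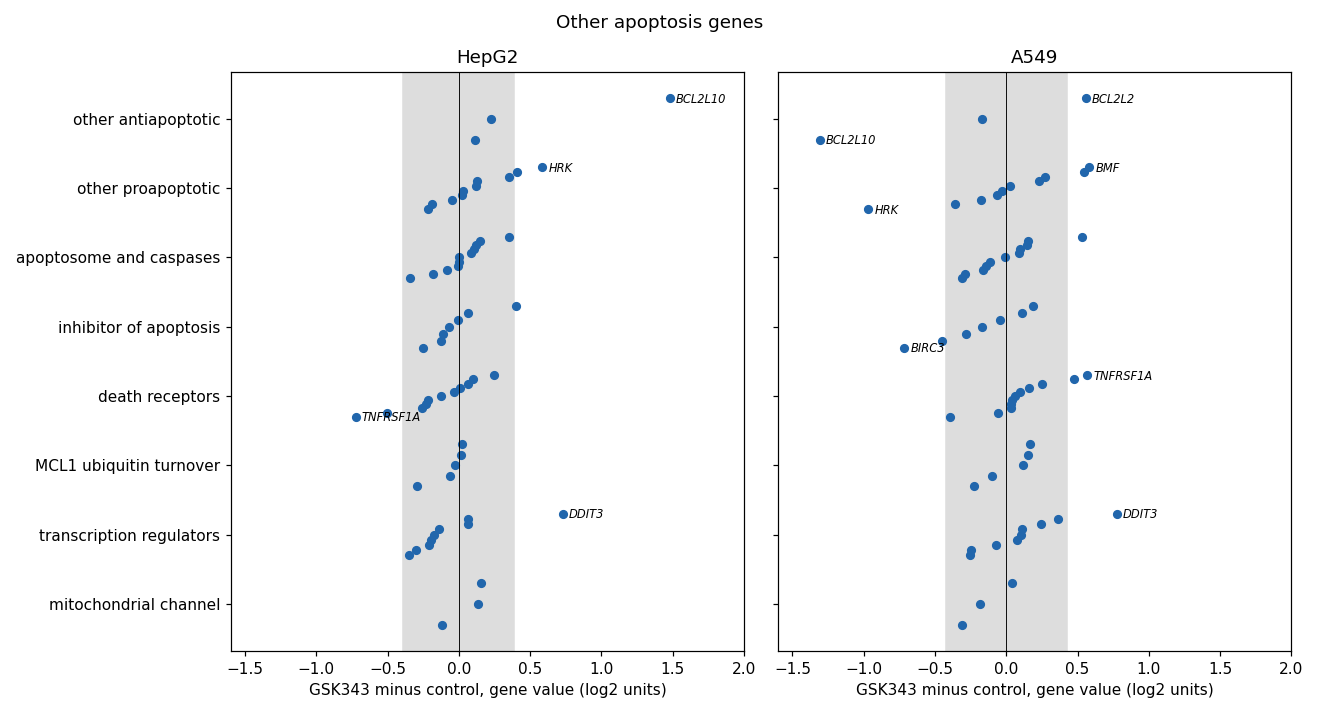
GSK343 minus control difference of each gene of the 8 wider lists (x axis, log2 units, mean over the probes of a gene) in HepG2 on the left and A549 on the right, with a row for each list and the spread between probes in grey. BCL2L10 lies farthest from 0 in both lines, at 1.48 and -1.31, and DDIT3 lies to the right in both.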

How the data were processed

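RNA of HepG2 and A549 cells was hybridised to Human OneArray Plus, a 1-colour array. The authors deposited 1 value table of processed, linear intensity for 31741 probes, and its 4 columns matched the 4 samples. The steps before it, including background correction and normalization, are not given in the sources used here. Probes were named from the platform annotation, in which 24740 probes name 1 gene, 977 several and 6024 none, and none was named from a probe with several.

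A difference is the log2 value with GSK343 less the log2 control value of the same line, without further scaling. Values of 0 or less were left out (31634 probes were kept in HepG2 and 31667 in A549). Probes were averaged to a gene value. A size of 1 log2 unit, a fold of 2, was used for counts. With 1 array per condition no test was run, and precision is limited by the number of arrays. Each difference was taken within a single probe, and intensities were compared between probes only to call, rank or filter them by brightness.

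The members and gene lists were chosen with earlier results of these data known. Named were all members, EZH2 and its PRC2 partners, the 5 nearest probes to BCL2L1 and MCL1, and from each list the genes past 1 log2 unit and the highest and lowest in each line. BCL2L12 was also named, outside this rule, which gave the list of other antiapoptotic genes whole. The other examples, TNFRSF1A's single probes and the other probes of the neighbours, were chosen after their values were seen. Some genes of the lists are not reported here. Alternatives were median centring, quantile normalization, an offset of 50, filters at the array median and 25th percentile, the brightest probe of each gene, shared probes included, and a size of 1.5. The computation was tested on simulated data. Quantile normalization was run with limma 3.58.1 in R 4.3.3, and the rest in Python 3.11.15 with pandas 2.3.3, numpy 2.4.6 and matplotlib 3.10.9. Promoters are from RefSeq on GRCh38.p14 and matched 9 of the 10 members.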

Additional observations from a re-analysis of the deposited data

Results flagged for a closer look

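BCL2L1 and MCL1 differed in opposite directions in the 2 lines on their single arrays. The A549 difference minus the HepG2 difference was 2.39 log2 units for BCL2L1 and 2.06 for MCL1. The difference between the lines was not tested, since each condition had 1 array.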

How the results depend on the processing

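No paired analysis was possible because each condition had 1 array, and for the same reason no array could be left out. Neither BCL2L1 nor MCL1 changed sign under any alternative. BCL2L1 ran from -1.27 to -1.19 in HepG2 and from just above 1 to 1.12 in A549 over the alternatives, and MCL1 from -1.03 to -0.95 and from 0.91 to 1.03. Median centring left 1 member probe lower in HepG2 and 1 higher in A549 in place of 2 each, and a size of 1.5 left 0 and 0. The antiapoptotic median was -1.15 in HepG2 with either intensity filter, and with the filter at the array median it was 1.03 in A549 and -1.21 between the controls, in place of -0.10. Either filter left BCL2 and BCL2A1 without a value in HepG2, and the filter at the array median also left BCL2 and BBC3 without one in A549 and between the controls. BCL2A1 between the controls was 3.78 with an offset of 50, and BCL2 was 0.49. Gene values near 0 turned sign, all within the spread between probes: BCL2, BCL2A1 and PMAIP1 in HepG2 and BAX and PMAIP1 in A549 with median centring, BCL2 and BCL2A1 in HepG2 with quantile normalization, BCL2L11 in HepG2 with the offset, BAK1 at 0.09 and BCL2L11 at -0.01 in A549 with the brightest probe, and BCL2A1 at 0.18 in HepG2 with shared probes included.

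Among the wider lists, the 1 gene higher in HepG2 became 0 with the offset, either filter or a size of 1.5. The 1 gene lower in A549 became 2 with median centring or quantile normalization, and 0 with the offset, the median filter or a size of 1.5. Between the controls, 11 higher and 11 lower became 5 and 5 at a size of 1.5. Over all probes in HepG2, 205 higher became 90 with the offset, 102 and 135 with the median and percentile filters and 44 at a size of 1.5, while 802 lower became 352, 259, 479 and 298. In A549, 499 higher became 240 with the offset, 228 with the median filter and 98 at a size of 1.5, while 242 lower became 43, 34 and 73, and 84 with the percentile filter. Between the controls 4254 and 4040 became 2602 and 2322 at a size of 1.5. Of the probes past 1 log2 unit in A549, 67.3% were higher, and this share was 48.8% with median centring and 59.6% with quantile normalization. Dim probes such as those of BCL2 and BCL2L10 limit what can be said of those genes.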

Other observations

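Between the controls, 11 of 59 genes in the wider lists were higher in A549 by at least 1 log2 unit and 11 lower. Among all genes, 13.7% were higher and 13% lower by that amount. As the lists were chosen with earlier results known, nothing is read from the counts. The examples were chosen after their values were seen. BIRC3, an inhibitor of apoptosis, at 4.34 log2 units was higher in A549. BIRC7, another inhibitor, read 471.6 in the HepG2 control and 3775 in the A549 control, and FADD read 5258 and 14865. BMF at -2.66, FOXO1, a transcription factor of the insulin pathway, at -2.40, BOK at -2.19 and CASP10 at -1.80 were lower. For BIRC3, BIRC7, BMF, FOXO1, BOK, CASP10 and FADD the difference between the GSK343 arrays had the same sign, at 3.63, 2.15, -2.11, -2.09, -1.74, -1.26 and 1.04. BAD, a BH3-only gene, read 7340 and 7455 in HepG2 and 21800 and 31867 in A549.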
